A study of Mus musculus with 2 samples.

Results

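The cells described here are the P2 Zpld1-high epithelial cells, 112 of the 4081 P2 cells that passed the quality filter (2.74%, exact 95% interval 2.27 to 3.29%) and of 15669 such cells in the whole series. They were chosen by their own counts: at least 10 unique molecular identifiers (UMIs, the tags that count captured transcripts) of Zpld1 per 10,000 UMIs of the cell, and at most 1 UMI of Pou4f3, a transcription factor of hair cells (HCs). Their levels were set beside the 2614 other P2 epithelial cells, which had at least 1 UMI of the epithelial adhesion gene Epcam and at most 1 of Pou4f3, and beside the 410 Zpld1-high cells that the same rule found among 11588 E14 cells. A group of 3442 other E14 epithelial cells served as the reference of the E14 cells.

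Sensory epithelia of the utricle, an otolith organ of the mouse vestibular system, were freed with thermolysin from wild-type (WT) mice at postnatal day 2 (P2) and embryonic day 14 (E14), and their cells were profiled by droplet-based 3′ single-cell RNA sequencing. Tissue of several animals of both sexes was pooled, and there was 1 library per age, so no difference could be tested over replicates. Age and library cannot be told apart. The deposited libraries held 6251 barcodes with 57003553 UMIs at P2 and 15636 barcodes with 122892080 UMIs at E14. All intervals cover counting error only, and neither the spread between animals nor that between cells.

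Zpld1 encodes a protein with a zona pellucida-like domain that is made by epithelial cells of the vestibular organs and is needed for normal function of the semicircular canal cristae in mice. The sensory patch of the utricle holds HCs and supporting cells (SCs), and is bordered by transitional cells and, further out, by roof epithelium and dark cells, which secrete potassium into the endolymph. Sox2 and the Notch pathway mark and maintain the sensory domain, whereas Lmx1a and several Wnt genes are known from the non-sensory otic epithelium.

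The gene that set the rule was Zpld1 itself, ENSMUSG00000064310, on the minus strand of chromosome 16. The Wnt pathway target Sp5 is shown beside it because it is a known direct target of the Wnt pathway, whose genes are described below. The 250 bases before the RefSeq start (GRCm38.p6) lie at chr16:55283238-55283487 for Zpld1 and at chr2:70474673-70474922 on the plus strand for Sp5. Capitals mark matches to the TCF/LEF core, searched on both strands. Its letters were CTTTG followed by A or T at each of the next 2 positions.
Zpld1: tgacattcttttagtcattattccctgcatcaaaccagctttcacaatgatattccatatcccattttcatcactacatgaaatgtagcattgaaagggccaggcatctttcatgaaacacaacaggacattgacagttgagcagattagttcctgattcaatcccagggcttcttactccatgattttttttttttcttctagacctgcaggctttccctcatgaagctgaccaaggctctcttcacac
Sp5: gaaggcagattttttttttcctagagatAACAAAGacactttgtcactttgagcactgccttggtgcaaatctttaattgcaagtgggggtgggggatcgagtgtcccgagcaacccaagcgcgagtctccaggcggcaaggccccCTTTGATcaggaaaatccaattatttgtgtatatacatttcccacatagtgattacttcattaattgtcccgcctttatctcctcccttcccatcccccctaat
The Sp5 window held 2 matches, which began 222 and 104 bases before the start, and the Zpld1 window held none. The gene ENSMUSG00000064310 spans chr16:55225175-55297986, so the Zpld1 window lies inside it and not before its 5′ end, which was not searched. Of the 3 other Wnt targets searched, Lef1 had a match at 1 of its 4 starts, and Axin2 and Nkd1 had none. Such a match occurred in 14.8% of 32851 RefSeq promoter windows of this length.

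Zpld1 levels ran from 10.3 to 119 UMIs per 10,000 in the P2 Zpld1-high cells, with a median of 33.2. In raw counts this was 2 to 426 Zpld1 UMIs per cell, with a median of 37.5, and 14 of the 112 cells held fewer than 5. The cells just inside the limit had 10.3, 10.8 and 10.9 UMIs per 10,000, and those just outside it 9.36, 8.86 and 8.82. The limit did not fall in a gap, since 8 cells lay between 10 and 12 and 9 cells between 8 and 10. The 112 cells nevertheless held 93.6% of all Zpld1 UMIs of the P2 library, and 3.90% of the other P2 epithelial cells had any Zpld1 UMI. The Pou4f3 limit set aside 1 P2 cell and 62 E14 cells that met the Zpld1 limit. The 410 E14 Zpld1-high cells held 55.3% of all Zpld1 UMIs of their library, and 385 of them (93.9%) had an Epcam UMI.

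The label epithelial held in the data. An Epcam UMI was found in 111 of the 112 cells. The 10 otoconia genes and the 18 junction and keratin genes on the gene lists used here all had UMIs. They also did in the P2 cells with at least 5 Pou4f3 UMIs, so this does not set the cells apart. Mesenchymal and immune markers were near 0. The 11 mesenchymal genes together had 11.6 CPM (a gene's UMIs summed over the group, scaled to a group total of 1000000) with 3 of them at 0, against 77.8 CPM in other P2 epithelial cells, and the 7 immune genes had 1.65 CPM with 5 at 0, against 4.17 CPM. The 6 glial genes summed to 296 CPM in P2 Zpld1-high cells and 280 CPM in other P2 epithelial cells, most of it Sox10, which otic epithelium also expresses. The 5 endothelial genes summed to 11.01 CPM with 3 at 0, against 4.57 CPM, and 1 of them, the receptor gene Kdr, passed the limits, at 10.5 CPM in P2 Zpld1-high cells and 3.73 CPM in other P2 epithelial cells. Kdr was under 2-fold with each cell weighted equally. The 21 HC genes summed to 430 CPM in P2 Zpld1-high cells and 754 CPM in other P2 epithelial cells. Of the 20 past the limits described below, 11 were at least 2-fold lower, beside 10.9% of all genes. None of the 112 cells, against 3.75% of the other P2 epithelial cells, was among the highest doublet scores of its library. Depth was similar, with a median of 10530 UMIs per P2 Zpld1-high cell and 8798 per other P2 epithelial cell, but the 10 deepest Zpld1-high cells carried 34.7% of the group's UMIs. The E14 Zpld1-high cells had a median of 7607 UMIs, and 12.2% of them were among the highest doublet scores. Of the barcodes, 23 occurred in both libraries, 10 of them in cells that passed the filter at both ages.

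The P2 Zpld1-high cells were low in Sox2 and in most SC genes, and high in a group of genes led by Il7r, Kcne4, Nupr1, Nox3, Car3, Wnt6 and Prss56. These are pooled levels, and not every cell held these genes. An Il7r UMI was found in 22 of the 112 cells, Kcne4 in 25, Nox3 in 41, Prss56 in 48, Nupr1 in 64 and Car3 in 82. Among 12539 genes with at least 50 UMIs in both groups together, 504 (4.02%) were at least 2-fold higher in P2 Zpld1-high than in other P2 epithelial cells and 1368 (10.9%) at least 2-fold lower. The median log2 ratio over all of them was -0.10, so the scale sits slightly below 0. Since the cells were chosen within this comparison, these counts describe them and test nothing. A gene that is scarce in the 2614 cells could pass the count limit only where it was high in the 112, which favours high ratios among rare genes.

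Nupr1, a small stress-responsive chromatin protein, stood at 1430 CPM (interval 1376 to 1486) in P2 Zpld1-high cells and 19.1 CPM (17.5 to 20.9) in other P2 epithelial cells, a ratio of 74.7. Carbonic anhydrase Car3 stood at 1528 CPM in P2 Zpld1-high cells and 32.6 CPM in other P2 epithelial cells, a ratio of 46.9. Per cell, Nupr1 ranged from 0 to 68.1 UMIs per 10,000 with a median of 6.50 in P2 Zpld1-high cells, against 0 to 63.9 with a median of 0 in the other P2 epithelial cells, so the ranges of single cells overlapped.

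Several of the leading genes were rare elsewhere. Il7r, the interleukin 7 receptor chain, had 63 UMIs in P2 Zpld1-high cells and 3 UMIs in other P2 epithelial cells, a ratio of 313 with a counting interval of 102 to 1560. Kcne4, an accessory subunit of potassium channels, had 86 UMIs in P2 Zpld1-high cells and 16 UMIs in other P2 epithelial cells, and a ratio of 80.2 (46.7 to 146.5). Nox3, the NADPH oxidase needed to form otoconia, had 92.5 CPM in P2 Zpld1-high cells and 1.70 CPM in other P2 epithelial cells, a ratio of 54.5 (39.1 to 77.2). Prss56, a serine protease, stood at 327 CPM in P2 Zpld1-high cells and 11.51 CPM in other P2 epithelial cells. The remaining genes of the leading 15 were Fsd2, Spink8, Fndc1, C1ql3, Ntn4, Wfdc12, Col14a1 and Lgals9, with ratios of 28.3, 27.1, 26.1, 26.0, 26.0, 18.6, 17.7 and 15.9. Among these Ntn4 encodes a netrin of basement membranes, and Col14a1 a collagen that binds to fibrils.

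The Wnt list was mixed, with ligands on both sides. Of its 33 genes, 29 passed the count limits, with a median log2 ratio of -0.65. Of these 29, 6 were at least 2-fold higher and 12 at least 2-fold lower in P2 Zpld1-high cells, beside 4.02% and 10.9% of all genes. The ligand Wnt6 stood at 131 CPM (115 to 149) in P2 Zpld1-high cells and 4.24 CPM (3.50 to 5.09) in other P2 epithelial cells, a ratio of 30.9 (24.6 to 38.9). The ligand Wnt4 stood at 57.8 and 6.49 CPM in the same order, and the secreted Wnt-binding protein Sfrp5 at 233 and 23.2 CPM. The feedback and target genes Lef1, Sp5 and Axin2 had ratios of 10.3 (6.56 to 16.1), 2.96 (2.55 to 3.44) and 2.11 (1.77 to 2.50). Axin2 fell under 2-fold without the cell that held most of its UMIs, and also at a Zpld1 limit of 20. Nkd1 stayed just under 2-fold at 1.95. Lower were the ligand Wnt7a, at 1.10 CPM in P2 Zpld1-high cells and 21.8 CPM in other P2 epithelial cells, the inhibitor Wif1, at 1.10 and 20.6 CPM, and the R-spondin receptors Lgr4, Lgr5 and Lgr6. Lgr4, with a ratio of 0.484, was within 2-fold at a Zpld1 limit of 20 and with the median log2 ratio set to 0. Lgr5, a marker of progenitor-like SCs, had 1 UMI in all 112 cells, a ratio of 0.0567 with an interval of 0.00143 to 0.319. Lgr6 had none, and was 4.96-fold lower by a floor of 3 counts over the group.

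**Figure D1:**
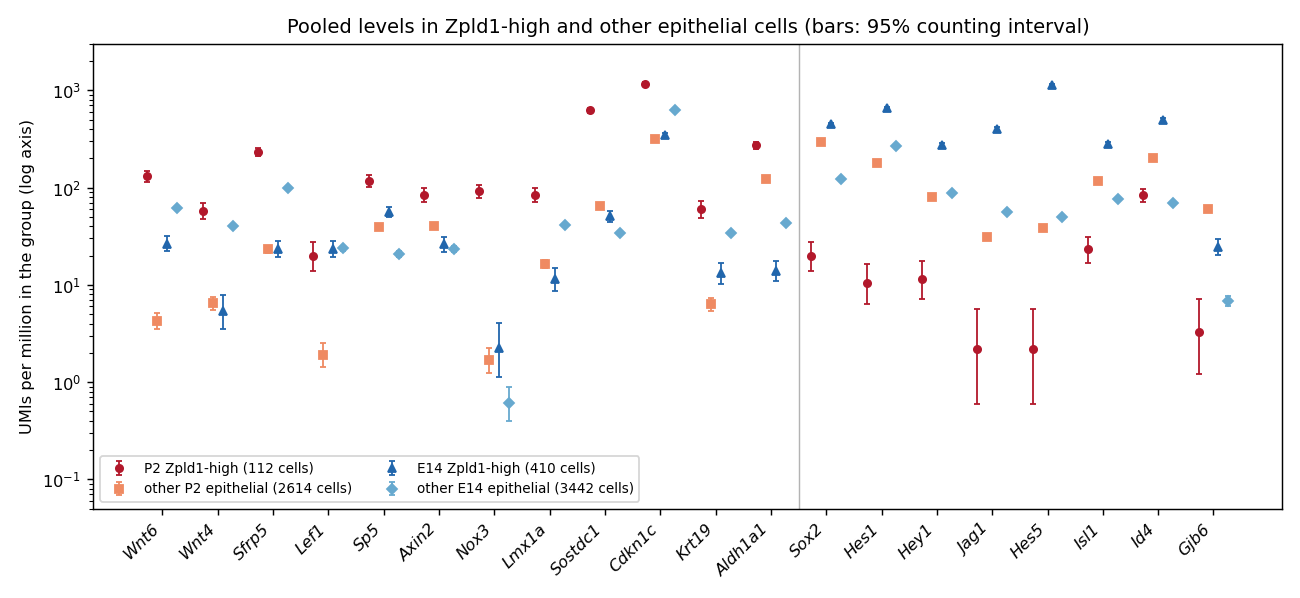
Pooled levels of 20 genes, in CPM on a log axis, in P2 Zpld1-high, other P2 epithelial, E14 Zpld1-high and other E14 epithelial cells, with exact 95% counting intervals; genes left of the line were at least 2-fold higher in P2 Zpld1-high than in other P2 epithelial cells and those right of it at least 2-fold lower. Sox2 stands at 19.8 CPM in the P2 Zpld1-high cells and at 448 CPM in the E14 Zpld1-high cells.

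Genes of the sensory domain were low. The SC list had 16 genes, 15 past the limits, of which 13 were at least 2-fold lower and none at least 2-fold higher, beside 10.9% of all genes lower. Sox2, the transcription factor of sensory progenitors and SCs, stood at 19.8 CPM (13.9 to 27.4) in P2 Zpld1-high cells and 297 CPM (291 to 304) in other P2 epithelial cells, a ratio of 0.0667 (0.0466 to 0.0924). The gap junction genes Gjb2 and Gjb6 had ratios of 0.126 and 0.0546, the glutamate transporter Slc1a3 0.373, and the cell cycle inhibitor Cdkn1b 0.431. Sox10, which marks otic epithelium in general, stood at 196 CPM in P2 Zpld1-high cells and 187 CPM in other P2 epithelial cells, within 2-fold. Sox9, a further otic progenitor and SC gene, was at 0.476, and was within 2-fold at a Zpld1 limit of 20, with each cell weighted equally and with the median log2 ratio set to 0.

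Shares of cells were compared at equal depth, with the 913 P2 cells that held at least 5 Pou4f3 UMIs as a gauge of free RNA in cells of another type. After each cell was thinned to 1500 UMIs, which left out 12 Zpld1-high, 517 other epithelial and 0 of the Pou4f3 cells, a Sox2 UMI was found in 6% (2.23 to 12.6%) of P2 Zpld1-high cells and 30.0% (28.1 to 32.1%) of other P2 epithelial cells, and in 51.7% of the Pou4f3 cells, which are no background for Sox2 because some vestibular HCs express it. Unthinned, the shares were 25.9% and 53.9%. Wnt6 was found in 17.0% (10.2 to 25.8%) of thinned P2 Zpld1-high cells and 0.620% of other P2 epithelial cells, with 0.110% of the Pou4f3 cells as a background. Nupr1 was found in 57.0% and 2.53%, Car3 in 57.0% and 2.34%, and Sostdc1 in 41.0% and 5.34% of the same groups, each with under 1% in the Pou4f3 cells. Median depths before thinning were 10530, 8798 and 18040 UMIs.

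The Notch pathway, in which ligands of the Jagged and Delta families activate receptors that switch on Hes and Hey repressors, was mostly low. Of 15 genes past the limits, 10 were at least 2-fold lower and 1, Notch2, at least 2-fold higher, beside 10.9% and 4.02% of all genes. The ligand Jag1 had 4 UMIs, or 2.20 CPM, in P2 Zpld1-high cells and 31.3 CPM in other P2 epithelial cells. Among the modifiers and targets, Lfng had a ratio of 0.111, Mfng 0.0983, Hes1 0.0580, Hes5 0.0573, Hey1 0.144, Hey2 0.160 and Heyl 0.0677. The receptors differed among themselves. Notch1 was within 2-fold, at 135 CPM in P2 Zpld1-high cells and 158 CPM in other P2 epithelial cells, Notch2 had a ratio of 2.20 (1.28 to 3.57) on 19 UMIs, which was under 2-fold with each cell weighted equally, and Notch3 one of 0.365 (0.181 to 0.660).

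Of the BMP antagonists, 7 of 10 passed the limits, with Sostdc1, Bambi and Nog at least 2-fold higher and Chrdl1 and Fstl1 at least 2-fold lower. Of all genes, 4.02% were higher and 10.9% lower. Chrdl1 was within 2-fold at a Zpld1 limit of 5 and against reference cells with 0 Zpld1 or with a Sox2 UMI, and Fstl1 with each cell weighted equally. Sostdc1, a secreted inhibitor of BMP and Wnt signalling, stood at 622 CPM (586 to 659) in P2 Zpld1-high cells and 64.2 CPM (61.2 to 67.2) in other P2 epithelial cells, a ratio of 9.69. The pseudoreceptor Bambi had a ratio of 3.41 (2.84 to 4.07), and the antagonist Nog 2.06 on 12 UMIs (1.02 to 3.78). Nog fell under 2-fold without the cell that held most Nog UMIs, and against reference cells with at least 3 Epcam UMIs. The ligand Bmp2 stood at 57.2 CPM in P2 Zpld1-high cells and 8.74 CPM in other P2 epithelial cells, whereas Bmp4, the ligand that marks sensory patches and cristae earlier in development, had 1 UMI in the 112 cells and 2.91 CPM in the others, a ratio whose interval (0.00472 to 1.08) includes equality. All 9 receptor and Smad genes past the limits were within 2-fold, and among the BMP target genes Id1 had a ratio of 1.42, Id2 0.812, Id3 1.70 and Id4 0.413.

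Non-sensory markers did not move as 1 group. Lmx1a, a transcription factor that restricts the sensory domain, stood at 84.8 CPM (interval 71.9 to 99.2) in P2 Zpld1-high cells and 16.5 CPM (15.0 to 18.1) in other P2 epithelial cells, a ratio of 5.13, and Dach1, which is expressed in the roof of the otic vesicle, had a ratio of 3.96. The potassium channel subunit Kcne1 and the anion exchanger Slc26a4, which mark dark cells and transitional cells, stood at 1.65 and 13.2 CPM in P2 Zpld1-high cells and at 17.3 and 131 CPM in other P2 epithelial cells. Esrrb, a regulator of dark cells, had no UMI in the 112 cells, 2.28-fold below the other P2 epithelial cells by the floor of 3 counts. The interval of its ratio reached 0.549 and so includes differences under 2-fold. Of the 17 genes on that list, 13 passed the limits. Of these, 3 (Lmx1a, Wnt6 and Sfrp5) were at least 2-fold higher and 7 at least 2-fold lower, beside 4.02% and 10.9% of all genes.

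Most junction and keratin genes were within 2-fold, but a larger share was higher than among all genes. Of 18 such genes, Krt7, Krt19, Cldn4 and Cldn8 were at least 2-fold higher, with ratios of 2.03, 9.45, 3.55 and 3.29. Of the others, 13 were within 2-fold and Cldn14 was lower, beside 4.02% of all genes higher and 10.9% lower. The Cldn14 call was lost in 9 of 14 alternatives. Krt7 fell under 2-fold without the cell with most of its UMIs, and also with each cell weighted equally. Of the extracellular genes, the otoconial matrix gene Oc90 stood at 4044 CPM in P2 Zpld1-high cells and 2063 CPM in other P2 epithelial cells, a ratio of 1.96, Otol1 at 901 and 1631 CPM, and the tectorin Tecta at 798 and 444 CPM. Tectb, a tectorin of the sensory patch, was lower, at 34.7 CPM in P2 Zpld1-high cells and 702 CPM in other P2 epithelial cells. Otop1, which is needed to start otoconia, had 1 UMI in P2 Zpld1-high cells and 942 UMIs in the others, the lowest ratio of the named genes at 0.0158 (0.000400 to 0.0885). After it came Slc6a14, Chl1, Slc22a3, Ebf3, Fibin, Anks1b, Penk, St8sia2, Nrcam, Fabp7, Lin7a and Ackr4, with ratios between 0.0202 and 0.0521 and between 1 and 10 UMIs each in the 112 cells.

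Most cell cycle genes and FGF genes past the limits were at least 2-fold lower, beside 10.9% of all genes. Mki67 had no UMI in the P2 Zpld1-high cells, 4.04-fold below the 6.68 CPM of the other P2 epithelial cells by the floor of 3 counts. Of the other 14 cell cycle genes past the limits, 7 were at least 2-fold lower, among them the inhibitor Cdkn1b. The 1 gene that was higher was Cdkn1c, an inhibitor of cyclin-dependent kinases, which stood at 1155 CPM (1106 to 1206) in P2 Zpld1-high cells and 316 CPM (309 to 322) in other P2 epithelial cells, a ratio of 3.66. In the FGF list 7 of 12 genes were at least 2-fold lower, among them the ligand Fgf3, with a ratio of 0.0893, and the target genes Etv4 and Etv5, with 0.189 and 0.226, while the receptor Fgfr2 was higher at 3.21. In the retinoic acid list 9 of 12 genes past the limits were within 2-fold. The synthesizing enzyme Aldh1a1 was higher, with a ratio of 2.23 (2.03 to 2.46). The degrading enzyme Cyp26b1, with 0.191 (0.0765 to 0.397), and Stra6 were lower.

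**Figure D2:**
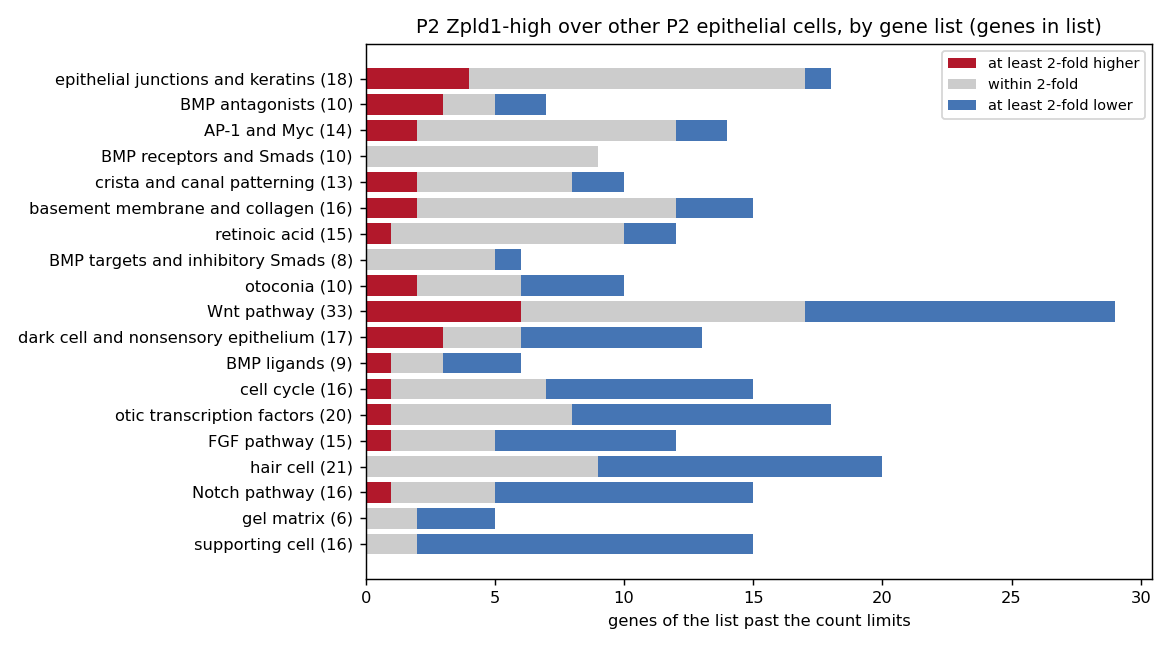
Number of genes of each list that were at least 2-fold higher, within 2-fold or at least 2-fold lower in P2 Zpld1-high than in other P2 epithelial cells, of those past the count limits, with the size of each list in brackets. The SC list has 13 of 15 genes lower and none higher.

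Levels differed with the amount of Zpld1 within the P2 epithelium. Sox2 stood at 304 CPM in the 2512 cells without a Zpld1 UMI, 196 CPM in 73 cells above 0 to 5 Zpld1 UMIs per 10,000, and 114 CPM in 29 cells at 5 to 10, and at 28.5, 14.5 and 17.4 CPM in the 35, 31 and 38 cells at 10 to 20, 20 to 40 and 40 to 80. Nupr1 stood at 12.1, 94.0 and 599 CPM in the same ranges below the limit, and at 1390, 1951 and 1198 CPM above it. The 29 cells just below the limit lay between for both genes, but their median depth was 1474 UMIs, against 6842 to 11280 in the ranges from 10 to 80. Car3 was highest where Zpld1 was highest, at 634 CPM at 10 to 20, 913 CPM at 20 to 40, 2441 CPM at 40 to 80 and 3458 CPM in the 8 cells at 80 or more. In those 8 cells Nupr1, Wnt6, Nox3, Sfrp5 and Prss56 had no UMI, whereas Krt19 reached 183 CPM and Sostdc1 1546 CPM. The top range rests on 8 cells, and without it Krt19 still stood at 103 CPM in the 38 cells at 40 to 80, against 17.5 CPM at 10 to 20.

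**Figure D3:**
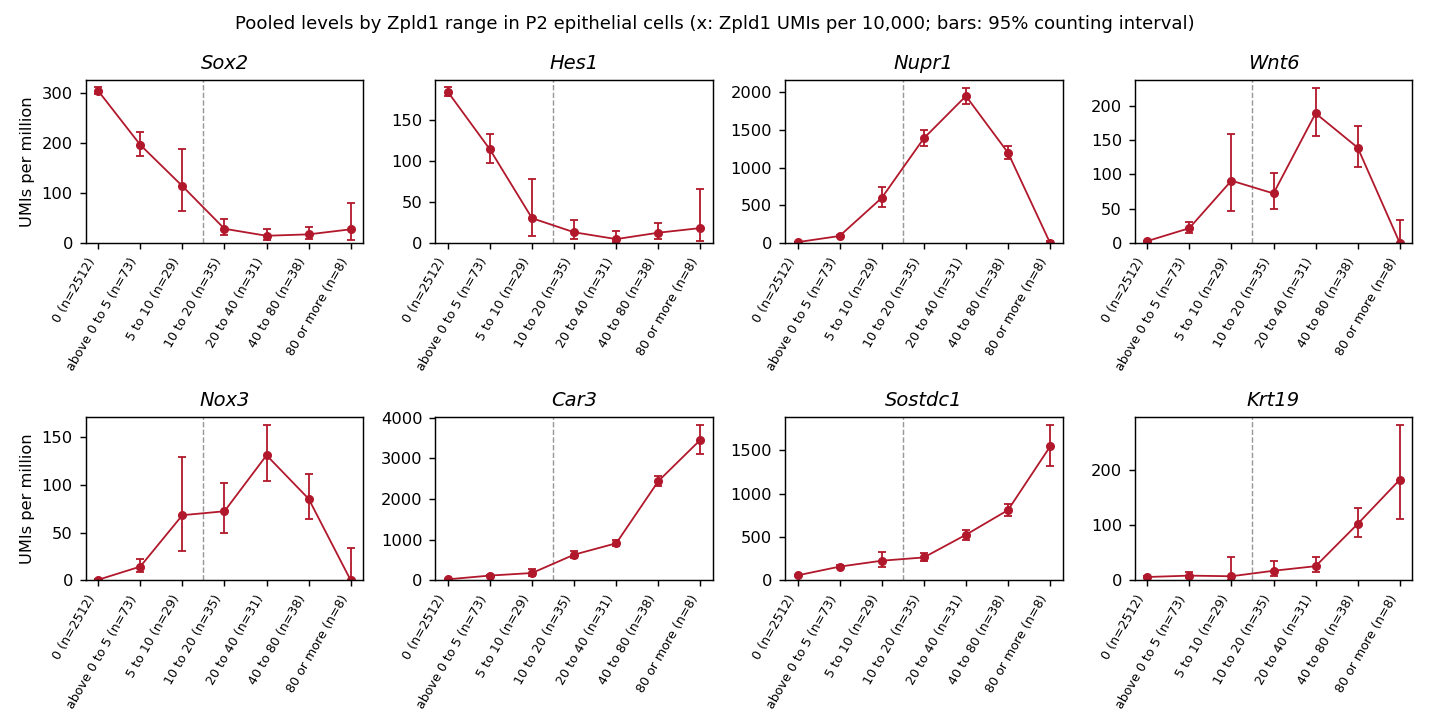
Pooled levels of 8 genes in CPM (vertical) over 7 ranges of Zpld1 UMIs per 10,000 (horizontal, with the number of cells) in P2 epithelial cells, with exact 95% counting intervals and a dashed line at the limit of 10. Nupr1, Wnt6 and Nox3 peak at 20 to 40 and are at 0 in the 8 cells at 80 or more, where Car3 reaches 3458 CPM.

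The leading genes did not all belong to the same cells. Clustering of the 112 cells without Zpld1 and Pou4f3 gave 3 subclusters, numbered 3, 1 and 2, of 52, 42 and 18 cells. They are named here by their leading genes, and since the clustering used these genes they are described and not tested. The 52 cells of the Cdkn1a/Rgs16/Il7r subcluster (3) had Wnt6 at 236 CPM, against 7.21 CPM in the other Zpld1-high cells, and Sfrp5 at 415 CPM, against 16.8 CPM. They also held 159 of the 168 Nox3 UMIs, 62 of the 63 Il7r UMIs, 553 of the 595 Prss56 UMIs and 200 of the 212 Sp5 UMIs. Interleukin gene Il33 and the interferon-induced Ifitm3 were among their leading genes, with 49.8 and 472 CPM, against 1.20 and 22.8 CPM in the other Zpld1-high cells.

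The 42 cells of the Pantr1/Ntn4/C2cd4b subcluster (1) lacked most of these genes. They had 2 Wnt6 UMIs, 1 Sp5 UMI and none of Nox3, Il7r, Kcne4, Prss56 or Lef1. Instead Ntn4 stood at 116 CPM, Bmp3 at 112 CPM, against 5.62 CPM, and Krt19 at 131 CPM, against 10.3 CPM. The other Zpld1-high cells had no Ntn4 UMI, which gave a ratio of 41.3 by the floor of 3 counts. Tecta stood at 1554 CPM in this subcluster and 274 CPM in the Cdkn1a/Rgs16/Il7r subcluster, and Sostdc1 at 1005 and 362 CPM. Zpld1 itself had a median of 53.6 UMIs per 10,000 here and 26.8 there. Shared by both were Cdkn1c, at 1182 and 1174 CPM, Car3, at 2104 and 1053 CPM, low Sox2, at 14.7 and 20.3 CPM, and Aldh1a1, at 216 and 306 CPM.

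The 18 cells of the remaining subcluster (2) had a median of 3204 UMIs, against 12780 and 10110 in the 2 larger ones. They were led by AY036118, Nefm and Smpx, at ratios between 4.11 and 6.85 over the other Zpld1-high cells. These rest on 63, 10 and 9 UMIs in the 18 cells. They held both Nupr1, at 1174 CPM, and Car3, at 1973 CPM. The number of subclusters depended on the resolution and was 2 at 0.3 and 5 at 1.0.

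**Figure D4:**
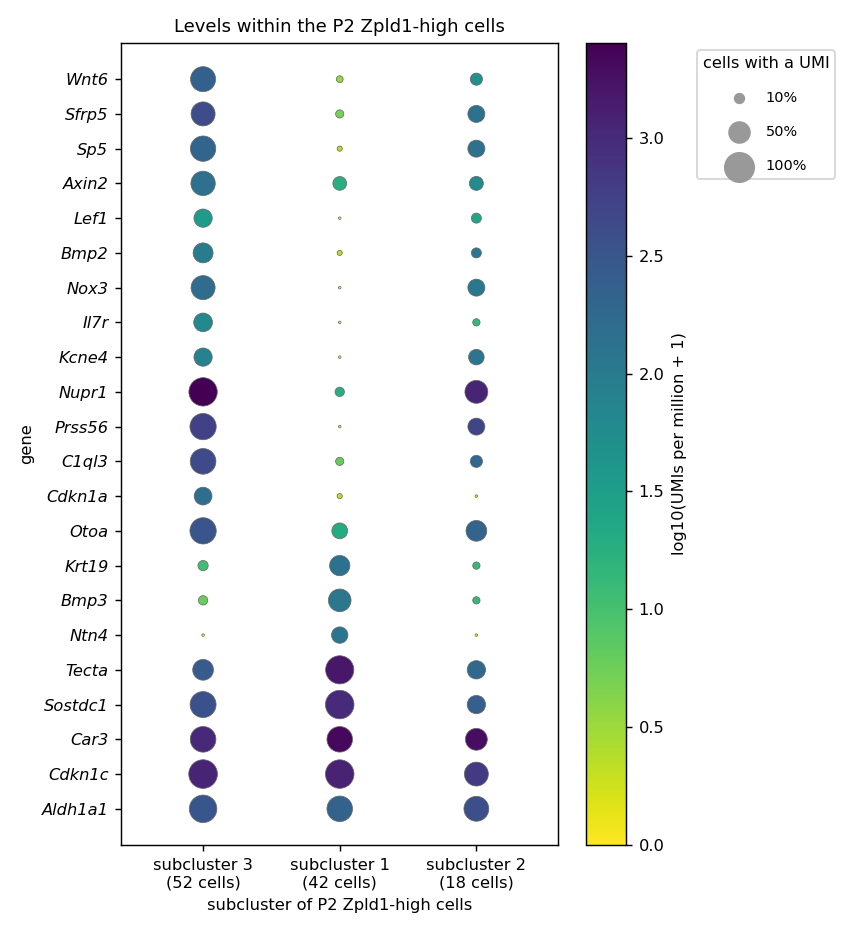
Genes (vertical) in the 3 subclusters of P2 Zpld1-high cells (horizontal, 52, 42 and 18 cells), with the share of cells holding a UMI as point size and log10 of CPM plus 1 as colour. Wnt6, Sp5 and Nox3 are concentrated in subcluster 3, Krt19, Bmp3 and Ntn4 in subcluster 1, and Car3 and Cdkn1c are present in each.

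Zpld1-high cells at E14 were high in Sox2 and Notch genes, which the P2 cells were not. Among 9413 genes tested, 992 (10.5%) were at least 2-fold higher in P2 than in E14 Zpld1-high cells and 1025 (10.9%) at least 2-fold lower. Zpld1 itself, used by the rule at both ages, had a similar median, 33.2 UMIs per 10,000 at P2 and 34.8 at E14. Sox2 stood at 19.8 CPM (13.9 to 27.4) in P2 and 448 CPM (429 to 467) in E14 Zpld1-high cells, a ratio of 0.0442 (0.0309 to 0.0614). The Notch target Hes5 had 4 UMIs, or 2.20 CPM, in P2 and 1123 CPM in E14 Zpld1-high cells, and the ligand Jag1 2.20 and 402 CPM. Msx1, a homeobox gene of the cristae, had 1 UMI in P2 Zpld1-high cells and 1526 UMIs in E14 Zpld1-high cells, and Bmp4 had 1 and 584 UMIs.

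By list, 10 of 15 SC genes and 12 of 14 Notch genes past the limits were at least 2-fold lower at P2 and none higher. Of all genes, 10.9% were lower and 10.5% higher. Of the cell cycle list, 11 of 15 genes were lower, among them the inhibitor Cdkn1b. The inhibitor Cdkn1c alone was higher, at 1155 and 347 CPM. Of the retinoic acid list, 7 of 12 genes were at least 2-fold higher at P2, led by Aldh1a1 at 272 CPM in P2 and 14.0 CPM in E14 Zpld1-high cells, a ratio of 19.4 (15.1 to 25.4), with Rdh10 at 4.10 and Aldh1a3 at 2.11, and Cyp26b1 was lower. Aldh1a3 was under 2-fold with each cell weighted equally. Of 17 junction and keratin genes past the limits, Krt7, Krt18, Krt19, Cldn3, Cldn4 and Cldn8 were at least 2-fold higher at P2, 10 were within 2-fold and Cldn6 was lower. The ratio was 5.67 for Cldn8 and 2.13 for Krt18, which was under 2-fold without its richest cell. Matrix genes went both ways. Of the gel matrix list, 4 of 5 genes past the limits were higher at P2 and Otog was lower. Of 8 otoconia genes past the limits, Otol1 and Nox3 were higher, and Sparcl1 and Spp1 lower. Tecta stood at 798 CPM in P2 and 18.1 CPM in E14 Zpld1-high cells, Otol1 at 901 and 120 CPM, and Tectb had 63 UMIs at P2 and 1 at E14. The largest ratios over E14, apart from Tectb, were those of Il7r, Slco2a1, Nupr1, Agt, C1ql3, Kcne4, Tmem52 and Itgbl1, between 56.6 and 168. Slco2a1, a prostaglandin transporter, stood at 94.1 CPM in P2 and 0.825 CPM in E14 Zpld1-high cells, and Agt, which encodes angiotensinogen, at 32.5 and 0.413 CPM. Next, with Tecta, came Scrg1, Nox3, Ifi27l2a, Sod3 and Nqo1, at ratios between 33.1 and 44.8. Besides those given above, the lowest ratios were those of Rprm, Ube2c, Calb1, Igfbpl1, Irx5, Pclaf, Exoc3l4 and Igfbp3, at 0.00204 to 0.00677.

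RNA of other cell types moved with this comparison. The 11 mesenchymal genes summed to 11.6 CPM in P2 and 1878 CPM in E14 Zpld1-high cells, with medians per cell of 0 and 5.18 UMIs per 10,000, and all 10 genes past the limits were at least 2-fold lower at P2, among them Otor, Col1a2 and Lum. Haemoglobin made up 0.000899% of the kept P2 UMIs and 1.09% of the kept E14 UMIs, and Hbb-bs stood at 2.75 CPM in P2 and 3134 CPM in E14 Zpld1-high cells. The 7 immune genes summed to 1.65 CPM at P2 and 70.8 CPM at E14, and the melanocyte gene Dct had 0 and 165 UMIs. The part of these in the result was not tested.

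Set against the epithelium of their own age, the Zpld1-high cells of the 2 ages differed in direction for some of the list genes. At E14, 436 genes (3.24%) were at least 2-fold higher in Zpld1-high than in other epithelial cells and 1235 (9.18%) at least 2-fold lower. Of the SC list, 8 of 15 genes were higher at E14 and none lower, against 13 of 15 lower at P2, and of the Notch list 8 of 15 were higher at E14 and none lower. Sox2 had 448 CPM in E14 Zpld1-high cells and 122 CPM in other E14 epithelial cells. Wnt6 ran the other way, with 26.6 and 62.2 CPM at E14, and so did Sfrp5, with 23.5 and 98.7 CPM, and Lmx1a, with 11.6 and 41.4 CPM. Sostdc1 stood at 50.5 CPM in E14 Zpld1-high and 34.3 CPM in other E14 epithelial cells, within 2-fold, and Nox3 had 11 and 26 UMIs there, too few for the count limits. Whether the effects of the 2 ages differ could not be tested with 1 library each.

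**Figure D5:**
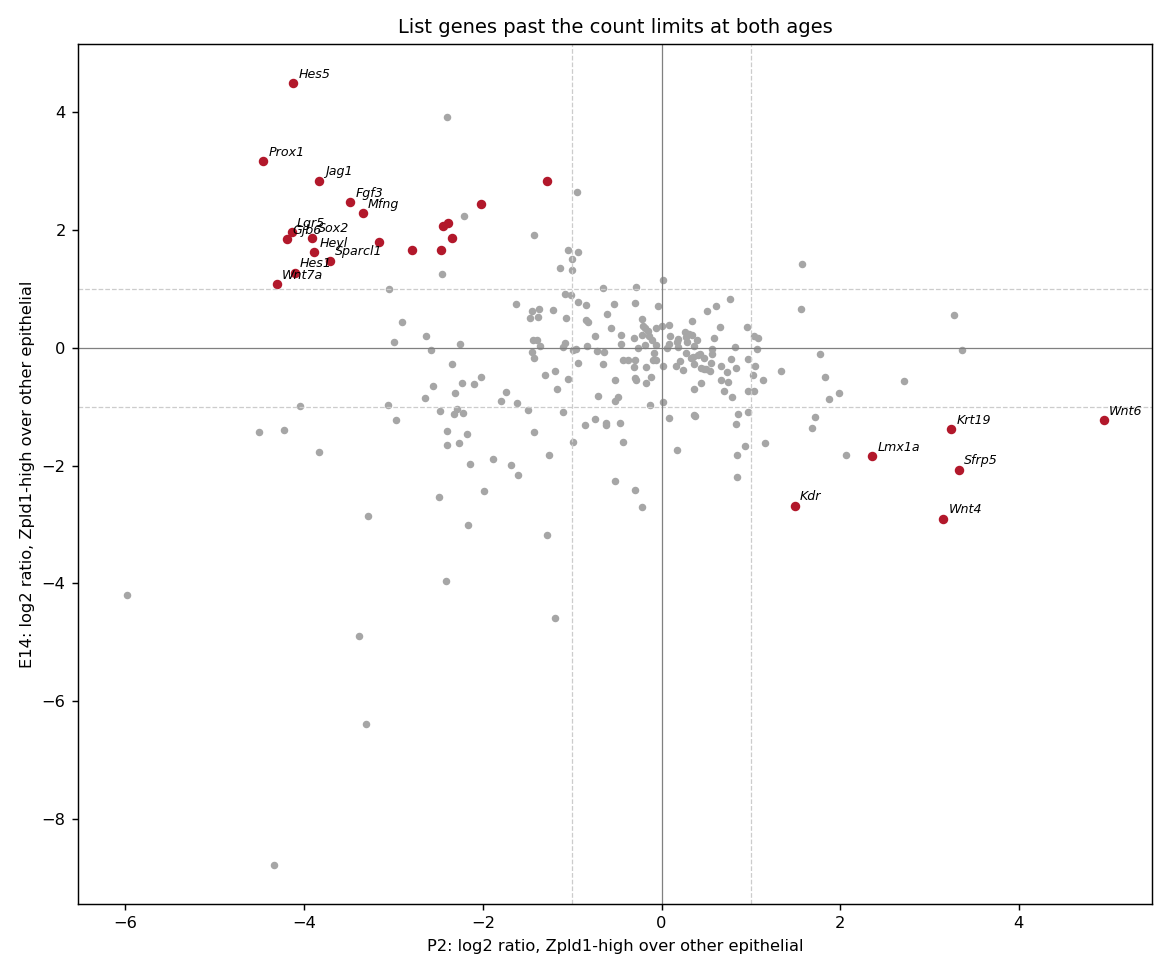
Log2 ratio of Zpld1-high over other epithelial cells at P2 (horizontal) and at E14 (vertical) for the 251 list genes past the count limits at both ages, with the 26 genes that were at least 2-fold in opposite directions and at least 4 apart in red. Hes5, Jag1 and Prox1 lie upper left and Wnt6, Sfrp5 and Lmx1a lower right.

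The E14 Zpld1-high cells with and without Sox2 differed in other genes, with overlap. A Sox2 UMI was present in 291 of them and absent in 119, a split made after the data were seen and bound to depth, with medians of 8388 and 3252 UMIs. The 119 cells without Sox2 had Lmx1a at 58.8 CPM (42.5 to 79.2), against 3.16 CPM (1.68 to 5.40) in those with it, Wnt6 at 72.4 CPM, against 18.5 CPM, Sostdc1 at 250 CPM, against 15.1 CPM, and Cdkn1c at 1028 CPM, against 226 CPM. Msx1 stood at 8.20 CPM without and 369 CPM with Sox2. With every cell thinned to 1500 UMIs the split was made anew, with a Sox2 UMI in 163 of 365 cells and none in 202. Cells can lose their Sox2 UMIs in thinning, so the 202 are not the 119 above, and their shares do not give the overlap of the 119 and the 291. Hes5 was found in 32.7% of the 202 and 66.3% of the 163, Jag1 in 35.1% and 45.4%, Bmp4 in 10.4% and 15.3%, and Msx1 in 9.90% and 27.0%. Lmx1a was found in 3.96% and 0.613%, and Sostdc1 in 9.41% and 1.84%, of the same cells. Compared with these 119 cells alone, 594 genes were at least 2-fold higher and 309 at least 2-fold lower in the P2 Zpld1-high cells. Nupr1, Tecta, Nox3, Il7r and Wnt4 stayed at least 2-fold higher at P2 in that comparison, with log2 ratios of 5.08, 3.94, 2.76, 4.67 and 2.82, whereas Cdkn1c, Aldh1a3, Wnt6, Lmx1a, Sp5, Krt7, Krt18, Krt19, Cldn3 and Cldn4 did not. Of the P2 Zpld1-high cells, 29 had a Sox2 UMI and 83 had none, and Lmx1a stood at 89.7 and 82.3 CPM and Hes5 at 0 and 4 UMIs in these.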

How the data were processed

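Per the study's methods and labels, the authors aligned 10x Genomics 3′ libraries with Cell Ranger 3.1.0, 1 for each age. The genome build is named both as GRCm39 and as mm10 in the sources used here and was not settled, so no coordinates were taken from the files. Each value in the deposited matrices is an unnormalized count of UMIs for a gene in a barcode. The quality filter asked for 500 or more genes and 1000 or more UMIs per cell, and for a mitochondrial share of no more than 15%. Counts were summed per group, with exact Poisson intervals for levels, exact conditional binomial intervals for ratios and Clopper-Pearson intervals for shares, at 95%. A gene was called at a ratio of at least 2 or at most 0.5, given at least 50 UMIs in both groups together and a UMI in at least 10 cells of one. Zpld1, Pou4f3 and Epcam were left out. Doublets were scored and kept, and counted in each group. A group at 0 was set to a floor of 3 counts over the group.

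The members and gene lists were chosen with earlier results of these data known. The named genes are the 15 highest and 15 lowest ratios of each comparison among genes with a UMI in at least 10% of the cells of the higher group, leaving out mitochondrial, ribosomal, haemoglobin and Y-linked genes, Xist and numbered gene models. List genes at least 2-fold higher or lower, and the 4 most abundant of each list, were added. Other list genes named here were chosen after their values were seen. Subclusters came from scanpy 1.11.5 with leidenalg 0.10.2 at a resolution of 0.5. Python 3.11.15, numpy 2.4.6, scipy 1.17.1 and pandas 2.3.3 were used, and the scripts were tested on simulated data.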

Additional observations from a re-analysis of the deposited data

Results flagged for a closer look

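At both ages the Zpld1-high cells were set against the other epithelial cells of their own library. Of 251 list genes past the count limits at both ages, 26 were at least 2-fold in opposite directions. Their intervals excluded equality and their log2 ratios were at least 4 apart. The share of all genes that meet these limits was not counted, so it is not known whether 26 is unusual. With 1 library per age the difference between the ages was not tested, and depth, free RNA and the makeup of the reference cells differ between the libraries.

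Of these genes, 6 were higher in the Zpld1-high cells at P2 and lower at E14. The log2 ratio at P2 minus that at E14 was 6.17 for Wnt6, 6.05 for Wnt4, 5.40 for Sfrp5, 4.62 for Krt19, 4.20 for Lmx1a and 4.17 for Kdr, an endothelial receptor gene with few UMIs.

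The other 20 were lower at P2 and higher at E14. For Notch pathway genes the difference was -8.63 for Hes5, -6.67 for Jag1, -5.64 for Mfng, -5.52 for Heyl, -5.39 for Hes1, -4.97 for Lfng and -4.45 for Hey1. For SC and sensory genes it was -7.64 for Prox1, -6.10 for Lgr5, -6.04 for Gjb6, -5.78 for Sox2, -4.51 for Atoh1, -4.50 for Cyp26b1 and -4.21 for Isl1. For ligands it was -5.96 for Fgf3, -5.39 for Wnt7a and -4.46 for Fgf10, for the BMP target Id4 -4.11, and for the matrix genes Sparcl1 and Otog -5.20 and -4.13.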

How the results depend on the processing

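Counts of genes past 2-fold depended on the filter. With at least 200 UMIs per gene, 266 genes were higher and 739 lower in P2 Zpld1-high than in other P2 epithelial cells, and 383 higher and 430 lower than in E14 Zpld1-high cells. With no filter, 5598 genes were higher and 1531 lower than in other P2 epithelial cells, against 504 and 1368 with the filter, and 4356 higher and 1869 lower than in E14 Zpld1-high cells, since genes with few UMIs then enter. Against the E14 Zpld1-high cells without a Sox2 UMI, an alternative chosen after seeing the data that has fewer cells and UMIs, 594 genes were higher and 309 lower, and 65 of 89 named ratios of at least 2-fold kept that size.

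Over the other alternatives (Zpld1 limits, Pou4f3 at 0, doublet scores, mitochondrial share, depth, Epcam, reference cells, equal weight per cell, centring, leaving out the cell richest in the gene), 86 to 92 of 93 named ratios over other P2 epithelial cells and 81 to 89 of 89 over E14 Zpld1-high cells stayed past 2-fold. Those that changed sign rested on few UMIs or on the Sox2 split. Esrrb had a log2 ratio of 0.15 over other P2 epithelial cells with a Sox2 UMI, and Msx1 one of 0.58 over other P2 epithelial cells without its richest cell. Over E14 Zpld1-high cells, Otop1 had 0.69 at a Zpld1 limit of 20, 0.11 with equal weights and 0.68 without its richest cell. Dct had 1.22 without the highest doublet scores and 1.42 without its richest cell, both set by the floor of 3 counts. Against E14 cells without Sox2, Dct had 0.27, Bmp3 -0.18, Fgfr2 -0.15, Kcne1 -1.31 and Sox2, by construction, 2.27. The cause was otherwise not tested.

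No paired analysis was possible because each age has 1 library, and for the same reason no replicate could be left out. The 112 cells hold few UMIs of many genes. A count of 0 there has a counting interval that reaches 2.03 CPM, and its ratio rests on the floor of 3 counts.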
